A study of Homo sapiens with 6 samples.

Results

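The collagens, laminins and integrins were examined in breast cell lines treated with decitabine (DAC, 5-aza-2'-deoxycytidine), a cytidine analog that is built into DNA and blocks DNA methyltransferases. Members were chosen by gene symbol, with earlier results of these data known: 44 collagen, 12 laminin and 26 integrin genes. They are 82 of the 23617 symbols measured in MDA-MB-231 cells, with 163 RefSeq transcripts of 43497. RNA was sequenced from untreated MDA-MB-231 cells (1 library), MDA-MB-231 cells given 10 µM DAC every day and collected at 72 h (1 library), untreated HMLER cells (2 libraries) and HMLER cells given the same treatment (2 libraries). MDA-MB-231 is an established breast cancer line with mesenchymal-like traits, and HMLER cells are mammary epithelial cells that were immortalised and then transformed in culture. RNA of several extractions was pooled for each library. The cell line field of the untreated MDA-MB-231 library names MDA-MB-232, and its title was followed. With 1 library per condition in MDA-MB-231, and 1 merged value per condition in HMLER, no difference has a replicate check and no test was run. The HMLER table holds only transcripts with a ratio above 2 and a DAC value of 1 FPKM or more. A member that is not listed may have been lower, level, or higher but under that level.

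Collagens are the structural proteins of the extracellular matrix, and their chains assemble as triple helices into fibrils, networks or anchoring structures. Laminins are cross-shaped trimers of an alpha, a beta and a gamma chain and organise the basement membrane together with collagen IV. Integrins are cell surface receptors made of an alpha and a beta chain, of which the alpha chain largely sets which matrix protein is bound. In the mammary gland, the epithelium rests on a basement membrane of laminin and collagen IV, whereas fibrillar collagens are mainly made by the fibroblasts of the stroma.

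Values are FPKM (fragments per kilobase of transcript, scaled to the mapped fragments of the library). In MDA-MB-231 they are summed over the transcripts of a gene, and in HMLER only listed transcripts have a value. A member was counted as higher or lower when the DAC/untreated ratio passed 2-fold and at least 1 library reached 1 FPKM. Low FPKM values stepped by the worth of a single read, and the reads behind each value were inferred from these steps. Over transcripts above 300 bases they summed to 4.28e+07 for untreated MDA-MB-231 cells and to 3.50e+07 for DAC-treated ones. The interval printed after a ratio is the exact 95% interval of the ratio of these reads. It covers counting error only and not the variation between cultures. Where both MDA-MB-231 libraries reached 1 FPKM (11292 symbols), the ratio had a median of 0.912 (log2 -0.13), against which the ratios of the members can be read. VIM (vimentin), the intermediate filament of mesenchymal-like cells such as MDA-MB-231, was at 3066 FPKM in the untreated library and 1134 in the DAC-treated one, while of 5 luminal markers CDH1 (epithelial cadherin), ESR1 and PGR were listed at 0 in untreated cells and at 0.179 FPKM or less after DAC. The others, EPCAM and GATA3, were at 7.90 and 0.795 FPKM in untreated and 9.78 and 1.71 FPKM in DAC-treated cells. Fewer cells of a type and less RNA per cell cannot be told apart in such samples.

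In MDA-MB-231, 36 of the 82 members passed the filter of 1 FPKM in either library. In this group 7 were more than 2-fold higher after DAC (COL1A1, COL7A1, COL9A2, COL9A3, ITGA1, ITGA7 and ITGB3), or 19.4%, where 10.8% of all 12525 symbols past the filter were higher. Of these 7, COL1A1, COL7A1, COL9A3, ITGA7 and ITGB3 passed the filter only through the DAC-treated library. With 1 FPKM asked of both libraries, 6.45% of the members and 4.37% of all symbols were higher. With 5 FPKM in either library, the shares were 4% and 4.95%. More than 2-fold lower were 8 members (COL4A1, COL4A2, COL8A1, COL13A1, COL17A1, COL18A1, ITGA3 and ITGA6), or 22.2%, where 4.82% of all symbols were lower. For all 15 the counting interval lay on the same side of 1. Among all symbols, 10% were called higher and 4.17% lower when this was also asked. The bounds that Cuffdiff gives each library, for the largest transcript of a gene, were apart for COL1A1, COL7A1 and COL18A1 alone, and among all symbols for 0.942% that were higher and 0.279% that were lower. The collagens held the larger part of the calls, with 4 higher and 6 lower of 16 past the filter. No laminin of 7 passed 2-fold in either direction, and among 13 integrins 3 were higher and 2 lower.

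**Figure D1:**
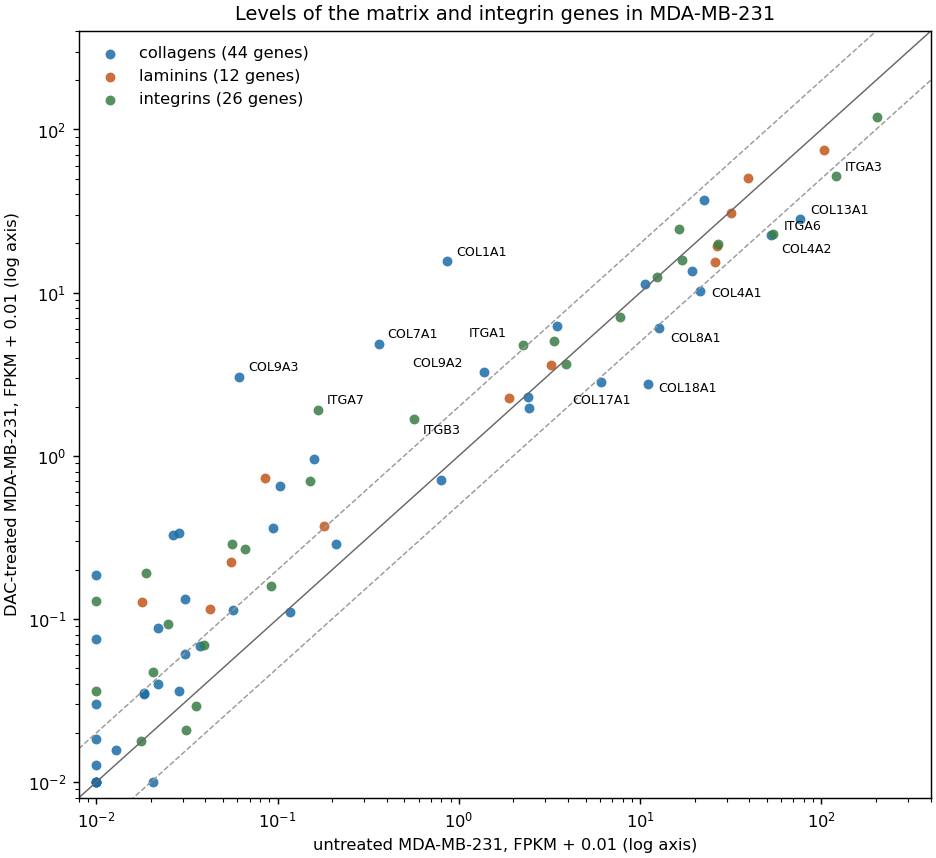
FPKM of each of the 82 members in the untreated (x axis) and DAC-treated (y axis) MDA-MB-231 library, with 0.01 FPKM added and log axes; the solid line marks equal values and the dashed lines a 2-fold difference, and the 15 genes past 2-fold and 1 FPKM are named. The 7 genes named above the upper dashed line were at 2.24 FPKM or less in untreated cells, and the 8 named below the lower one at 6.09 FPKM or more.

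The direction differed along the expression range. Of 42 members with a mean of both libraries under 1 FPKM (and above 0), 37 were higher and 5 lower in the DAC-treated library (88.1% higher). Between 1 and 10 FPKM, 11 of 18 were higher (61.1%), and at 10 FPKM or more 13 of 18 were lower and 5 higher (27.8% higher). The same order was seen over all symbols, of which 81.5%, 54.6% and 31.9% were higher in these ranges. The median ratio of the members in these ranges was 4.38, 1.36 and 0.730, beside 3.62, 1.05 and 0.876 for all symbols, so the share in each direction followed that of all symbols while the abundant members lay lower.

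Promoter sequences are shown for members that mark the main patterns described in the next paragraphs: COL7A1, higher in MDA-MB-231, COL9A2, higher in both lines, COL17A1 and LAMA3, with the 2 largest ratios among the HMLER members, and the stretch between COL4A1 and COL4A2. DNA methyltransferases, the enzymes that DAC blocks, act mainly on CpG dinucleotides, which are in capitals. The first 4 are the 250 bases before the start that RefSeq annotates, and the last is the whole interval between the starts of the head-to-head genes (RefSeq, GRCh38.p14).
COL7A1 (chr3:48595330-48595579, minus strand): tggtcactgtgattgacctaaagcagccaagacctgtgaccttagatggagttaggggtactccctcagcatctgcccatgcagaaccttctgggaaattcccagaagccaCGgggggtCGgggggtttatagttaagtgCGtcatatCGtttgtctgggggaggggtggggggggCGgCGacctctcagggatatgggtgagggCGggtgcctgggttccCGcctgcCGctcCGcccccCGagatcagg
COL9A2 (chr1:40317287-40317536, minus strand): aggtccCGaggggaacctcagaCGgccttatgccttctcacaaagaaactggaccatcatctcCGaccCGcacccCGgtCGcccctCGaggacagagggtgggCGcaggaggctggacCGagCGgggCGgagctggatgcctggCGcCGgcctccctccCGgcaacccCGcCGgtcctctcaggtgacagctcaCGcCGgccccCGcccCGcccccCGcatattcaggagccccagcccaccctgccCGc
COL17A1 (chr10:104085881-104086130, minus strand): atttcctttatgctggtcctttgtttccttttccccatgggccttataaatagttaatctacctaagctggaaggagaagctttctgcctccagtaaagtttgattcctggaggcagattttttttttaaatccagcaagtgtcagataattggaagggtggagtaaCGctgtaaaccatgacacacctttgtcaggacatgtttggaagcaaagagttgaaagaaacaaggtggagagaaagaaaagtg
LAMA3 (chr18:23872770-23873019, plus strand): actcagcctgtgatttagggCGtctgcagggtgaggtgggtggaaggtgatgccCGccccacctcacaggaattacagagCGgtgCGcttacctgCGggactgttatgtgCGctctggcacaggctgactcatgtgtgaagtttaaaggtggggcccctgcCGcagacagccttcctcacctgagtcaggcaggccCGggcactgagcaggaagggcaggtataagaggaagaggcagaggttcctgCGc
COL4A1/COL4A2 (chr13:110307158-110307283, plus strand): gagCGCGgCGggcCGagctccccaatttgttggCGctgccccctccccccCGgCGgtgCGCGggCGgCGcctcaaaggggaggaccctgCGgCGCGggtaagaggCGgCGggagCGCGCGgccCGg
The COL4A1/COL4A2 interval holds 20 CpGs in 126 bases, and the COL17A1 stretch 1 CpG in 250. The COL7A1, COL9A2 and LAMA3 stretches hold 11, 22 and 9. The LAMA3 start lies inside the gene (23689453 to 23955066), which also has transcripts that begin further upstream.

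Among the fibrillar collagens, which form the cable-like fibrils of connective tissue, COL1A1 stood apart. COL1A1 (hg19, chromosome 17, 48261462 to 48278993, minus strand), the alpha-1 chain of collagen I, was at 0.853 FPKM (209 reads, bounds 0 to 1.83) in the untreated library and at 15.6 FPKM (3809 reads, bounds 8.58 to 22.7) in the DAC-treated one. The ratio was 18.3 (interval 15.9 to 21.2). Its partner chain COL1A2, which normally pairs with COL1A1 in the collagen I trimer, was listed at 0 in untreated cells and at 0.177 FPKM (39 reads) after DAC, so that the chains of collagen I remained far apart in level. COL3A1, the chain of collagen III, went from 19 to 79 reads (0.0843 and 0.353 FPKM) and stayed below the filter. The collagen V chains, which are known to nucleate fibrils, were close between libraries. COL5A1 was at 2.43 and 1.95 FPKM (ratio 0.802, interval 0.724 to 0.887) and COL5A2 at 2.39 and 2.28 FPKM (ratio 0.955, interval 0.858 to 1.07). COL27A1, a fibrillar collagen known from cartilage, was at 3.45 and 6.21 FPKM, a ratio of 1.80 (interval 1.65 to 1.96), short of 2-fold. The other fibrillar chains (COL2A1, COL5A3, COL11A1, COL11A2 and COL24A1) were at 0.123 FPKM or less in both libraries.

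Fibroblast markers were examined beside the rise of COL1A1. The receptor genes PDGFRA and PDGFRB were at 0.00737 and 0.217 FPKM in untreated and at 0.886 and 1.44 FPKM in DAC-treated cells, whereas the fibroblast proteoglycans DCN and LUM had 1 read each in untreated cells and 0 and 3 after DAC. Summed over these 4 markers, the level was 0.260 FPKM before and 2.37 FPKM after DAC, and only PDGFRB was counted as higher, the others staying below 1 FPKM. Of all symbols under 1 FPKM, 81.5% had more in the DAC-treated library. Of the 3 leukocyte and 2 endothelial markers none reached 1 FPKM (sums of 0.0427 and 0.0888 FPKM in untreated, 0.403 and 0.366 in DAC-treated cells). The part of other cells in the COL1A1 value was not tested.

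Of 6 chains of the basement membrane collagen IV, COL4A1 and COL4A2 were lower and 4 did not reach 1 FPKM. COL4A1 (hg19, chromosome 13, 110801310 to 110959504, minus strand) and COL4A2 (110958159 to 111165556, plus strand), which encode the chains of the common collagen IV trimer and are transcribed in opposite directions from the shared promoter printed above, were lower together. By these positions, taken from GENCODE, the genes overlap, whereas the printed stretch lies between the starts that RefSeq annotates. COL4A1 was at 21.4 FPKM in untreated and 10.2 in DAC-treated cells (5819 and 2752 reads, ratio 0.476, interval 0.454 to 0.498). COL4A2 was at 52.4 and 22.7 FPKM (13613 and 5853 reads, ratio 0.432, interval 0.419 to 0.446). In each library COL4A2 was thus more than 2-fold above COL4A1 in FPKM. The pairs COL4A3/COL4A4 and COL4A5/COL4A6, which are also arranged head to head and encode the chains of specialised basement membranes, did not reach 1 FPKM. COL4A3 was at 0.0208 and 0.0508 FPKM, COL4A4 at 0.199 and 0.277, COL4A5 at 0.789 and 0.704 and COL4A6 at 0.0470 and 0.104. The bounds of the largest transcripts overlapped for COL4A1 (11.8 to 31.1 and 5.49 to 14.9) and for COL4A2 (27.3 to 77.6 and 12.4 to 32.9). COL18A1 (hg19, chromosome 21, 46825080 to 46933634, plus strand), the basement membrane multiplexin from which endostatin is cut, had the lowest ratio of all members past the filter. It was at 11.0 FPKM in untreated and 2.73 in DAC-treated cells (2445 and 603 reads, ratio 0.247, interval 0.226 to 0.271), and the bounds of its 5382-base transcript were apart (5.71 to 16.3 and 0.760 to 4.53). Its 5894-base transcript was at 0.0394 and 0.0828 FPKM only. The antisense gene COL18A1-AS1 was at 0 and 0.0221 FPKM, and COL4A2-AS1 at 0.377 and 0.459.

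COL7A1 (hg19, chromosome 3, 48601506 to 48632762, minus strand), which makes the anchoring fibrils that fasten the epidermal basement membrane to the dermis, was at 0.351 FPKM (135 reads, bounds 0 to 0.851) in untreated and 4.85 FPKM (1857 reads, bounds 2.46 to 7.24) in DAC-treated cells. The ratio was 13.8 (interval 11.6 to 16.6). Collagen XVII, encoded by COL17A1 (hg19, chromosome 10, 105791044 to 105845638, minus strand), is the transmembrane collagen of hemidesmosomes and lies in the same adhesion zone of the skin as collagen VII. COL17A1 was at 6.09 and 2.80 FPKM (1410 and 646 reads, ratio 0.461, interval 0.419 to 0.506), with overlapping bounds (2.89 to 9.29 and 0.927 to 4.68). COL13A1 (hg19, chromosome 10, 71561636 to 71724031, plus strand), another transmembrane collagen, had the largest FPKM of all collagens in untreated cells. Summed over its transcripts, COL13A1 was at 76.0 and 28.3 FPKM (ratio 0.372, interval 0.353 to 0.382). Its 4 detected transcripts differed in extent. The 2816-base and 2921-base transcripts had ratios of 0.606 and 0.599, the 3044-base transcript a ratio of 0.313, and the 2990-base transcript went from 17.2 FPKM (bounds 0.467 to 34.0) to 0.549 FPKM (bounds 0 to 2.32). The assignment of reads to such similar transcripts is uncertain, so the sum is the firmer value.

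COL9A2 and COL9A3 encode chains of collagen IX, which coats cartilage fibrils. Both were higher after DAC, while COL9A1, the chain that completes the trimer, had 0 and 1 read. COL9A3 (hg19, chromosome 20, 61447596 to 61472511, plus strand) went from 5 reads (0.0514 FPKM) to 293 reads (3.04 FPKM), the largest ratio of all members past the filter at 59.2 (interval 25.0 to 183). COL9A2 (hg19, chromosome 1, 40766161 to 40783485, minus strand) was at 1.37 and 3.25 FPKM (153 and 361 reads, ratio 2.38, interval 1.96 to 2.89). Bounds overlapped for both, and 155 of the 4841 annotated exon bases of COL9A3 are shared with TCFL5, which was at 21.9 and 13.9 FPKM. COL12A1, a collagen that decorates fibrils, was at 22.5 and 36.7 FPKM (ratio 1.63, interval 1.58 to 1.66). COL16A1 stayed just under the filter at 0.148 and 0.939 FPKM (34 and 215 reads), and COL14A1 went from 5 to 87 reads. The chains of the beaded filament collagen VI did not pass 2-fold. COL6A1 was at 10.7 and 11.3 FPKM and COL6A2 at 19.4 and 13.5 (ratio 0.697, interval 0.649 to 0.733), and COL6A3, the long chain needed for the trimer, had 38 and 236 reads (0.0933 and 0.639 FPKM). COL8A1, a short-chain collagen of vessel and corneal basement membranes, was at 12.7 and 6.06 FPKM (ratio 0.477, interval 0.436 to 0.521), and its partner COL8A2 went from 3 to 57 reads (0.0166 and 0.317 FPKM).

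**Figure D2:**
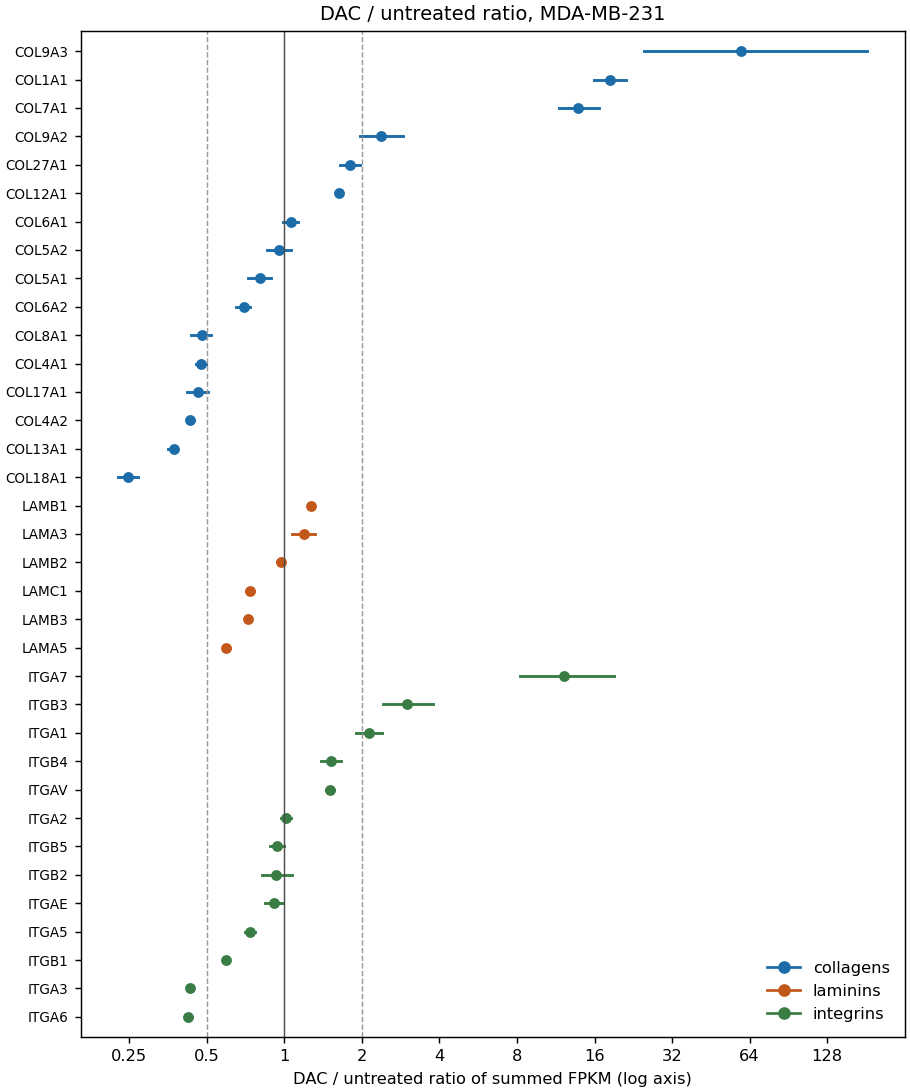
DAC/untreated ratio of summed FPKM (points, log axis) with the exact 95% counting interval of the reads (lines) for 35 members that passed the filter in MDA-MB-231, ordered within each family; dashed lines mark 2-fold. COL9A3, COL1A1, COL7A1 and ITGA7 lie above 8, the laminins lie between 0.596 and 1.27, and COL18A1 is lowest at 0.247.

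No laminin past the filter differed by 2-fold, while the 5 below it did. LAMB3 and LAMA3 encode the beta and alpha chains of the laminin of hemidesmosomes and were at very unequal levels. LAMB3 was at 103.2 FPKM in untreated and 74.9 in DAC-treated cells (ratio 0.726, interval 0.704 to 0.737), whereas LAMA3 was at 1.87 and 2.24 FPKM (ratio 1.20, interval 1.07 to 1.31). The chains of laminin-511, the widespread laminin of epithelial basement membranes, were at more even levels. LAMA5 was at 26.0 and 15.5 FPKM (ratio 0.596, interval 0.579 to 0.614), LAMB1 at 39.6 and 50.2 FPKM (ratio 1.27, interval 1.23 to 1.30) and LAMC1 at 26.4 and 19.4 FPKM (ratio 0.735, interval 0.712 to 0.759). LAMB1 was therefore above its untreated value and the alpha and gamma chains it assembles with below theirs, all within 2-fold. LAMB2, the beta chain of muscle and kidney laminins, was at 31.7 and 30.7 FPKM. The remaining 5 laminins (LAMA1, LAMA2, LAMA4, LAMB4 and LAMC3) had 2 to 70 reads in untreated and 29 to 146 reads in DAC-treated cells, and each was higher after DAC. LAMA4, an endothelial and muscle laminin chain, was at 0.0754 and 0.717 FPKM (23 and 97 reads). Of its DAC value 0.433 FPKM belonged to a 784-base transcript, and the ratio of its reads is smaller than that of its FPKM.

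Among the integrin alpha chains that bind laminin, ITGA3 and ITGA6 were lower and ITGA7 higher. ITGA3 (hg19, chromosome 17, 48133332 to 48167845, plus strand) was at 119.9 FPKM in untreated and 51.6 in DAC-treated cells (24748 and 10586 reads, ratio 0.430, interval 0.420 to 0.440). ITGA6 (hg19, chromosome 2, 173292082 to 173371187, plus strand), whose product pairs with ITGB4 in hemidesmosomes or with ITGB1 elsewhere, was at 54.0 and 22.9 FPKM (12909 and 5445 reads, ratio 0.424, interval 0.411 to 0.438). Both of its transcripts were lower, the 5810-base one from 44.6 to 20.1 FPKM and the 5680-base one from 9.41 to 2.76 FPKM. ITGA7 (hg19, chromosome 12, 56078352 to 56110188, minus strand), the laminin receptor chain typical of muscle, went from 26 reads (0.156 FPKM) to 316 reads (1.91 FPKM), a ratio of 12.2 (interval 8.19 to 19.0). The level of ITGA7 after DAC was thus still far under that of ITGA3 and ITGA6. For ITGA3 the bounds were 52.1 to 185.9 and 27.5 to 75.6 FPKM, and they overlapped for ITGA6 and ITGA7 as well. METTL7B, which shares 44 exon bases with ITGA7, was at 2.43 and 7.31 FPKM.

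ITGB1, the beta chain that pairs with most of these alpha chains, was the most abundant member in both libraries, at 202.7 and 119.9 FPKM (31582 and 18586 reads, ratio 0.591, interval 0.581 to 0.603). ITGB4, the hemidesmosome beta chain, was at 3.32 and 5.03 FPKM (ratio 1.52, interval 1.39 to 1.66). Its partner ITGA6 was lower in the same library. Of 4 collagen-binding alpha chains, ITGA1 was higher and no other passed 2-fold with 1 FPKM. ITGA2 was at 12.3 and 12.5 FPKM (ratio 1.01, interval 0.970 to 1.06), and ITGA1 (hg19, chromosome 5, 52083750 to 52255039, plus strand) at 2.24 and 4.79 FPKM (441 and 937 reads, ratio 2.14, interval 1.91 to 2.40). ITGA1 shares 499 of its 18545 annotated exon bases with PELO, which was at 23.9 and 18.8 FPKM. ITGA10, a collagen receptor chain of cartilage, went from 30 to 146 reads (0.142 and 0.689 FPKM), and ITGA11 from 6 to 12. Of the chains that recognise the RGD motif of fibronectin and vitronectin, ITGAV was at 16.3 and 24.5 FPKM (interval of the ratio 1.45 to 1.56) and ITGA5 at 26.9 and 19.8 FPKM (ratio 0.736, interval 0.704 to 0.769). ITGB3 (hg19, chromosome 17, 45331193 to 45391109, plus strand), a partner of ITGAV, was at 0.555 and 1.66 FPKM (ratio 2.99, interval 2.42 to 3.76), with overlapping bounds. ITGB5, the other main partner of ITGAV here, was at 17.0 and 15.9 FPKM.

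Integrins of blood cells were low in both libraries with the exception of ITGAE and ITGB2. ITGAE, which encodes the receptor chain for epithelial cadherin on intraepithelial lymphocytes, was at 7.77 and 7.07 FPKM, and it shares 427 of 6602 exon bases with GSG2 (25.1 and 24.5 FPKM). ITGB2, the common beta chain of leukocyte integrins, was at 3.89 and 3.62 FPKM, and it shares 303 of 7300 exon bases with the antisense gene ITGB2-AS1 (1.38 and 2.96 FPKM). The alpha chains that pair with ITGB2, namely ITGAL, ITGAM, ITGAX and ITGAD, had 0 to 4 reads in untreated and 3 to 25 reads in DAC-treated cells. ITGAL went from 0 to 25 reads, ITGA4 from 2 to 45 and ITGA9 from 9 to 41. In all, 46 members stayed below 1 FPKM. Of these 37 were higher after DAC, 5 were lower, and 4 (COL5A3, COL11A2, COL22A1 and COL28A1) were listed at 0 in both libraries. Of the 37, 7 were listed at 0 in untreated cells. Among all 11092 symbols below 1 FPKM, 4935 were higher, 1136 were lower and 5021 were listed at 0 in both libraries.

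**Figure D3:**
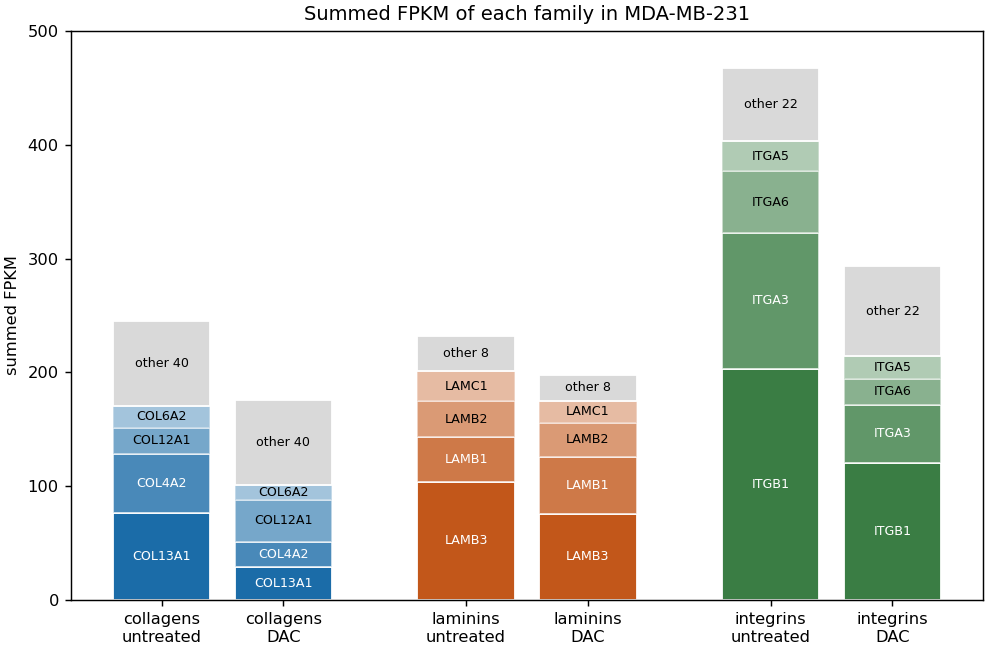
Summed FPKM of the collagens, laminins and integrins in the untreated and DAC-treated MDA-MB-231 library, with the 4 largest members of each family named and the other members in grey; there are no error bars because each bar is 1 library. The sum is lower after DAC in each family, as it is over all symbols, and ITGB1, ITGA3 and ITGA6 make up 80.6% of the untreated integrin sum.

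Summed over all transcripts of all members, each family was lower in the DAC-treated library. The sum over all symbols was lower as well, at 589238 FPKM in untreated and 480455 in DAC-treated cells. The collagens summed to 244.8 FPKM in untreated and 175.9 in DAC-treated cells (ratio 0.719), the laminins to 232.2 and 198.0 (ratio 0.853) and the integrins to 467.6 and 293.0 (ratio 0.627). These sums rest on few genes. COL13A1 alone held 31.0% of the untreated collagen sum, and without it the collagen ratio was 0.875. Without LAMB3 the laminin ratio was 0.954, and without ITGB1 the integrin ratio was 0.654. The median log2 change with 1 FPKM added was -0.13 for the 16 collagens past the filter, -0.05 for the 7 laminins and -0.08 for the 13 integrins, beside -0.08 over all symbols past the filter.

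Calls of lower members depended on how the libraries were scaled. Division by the median ratio of all symbols left 5 of the 8 (COL4A2, COL13A1, COL18A1, ITGA3 and ITGA6). Division by the ratio of the summed FPKM times effective length (length minus 240 bases), 0.822, left COL13A1 and COL18A1. This ratio, an alternative chosen after seeing the data, is called the ratio of inferred reads below. It leaves out what 1 read is worth in each library. Of all symbols, 3.53% and 2.64% were lower after these divisions, beside 13.5% and 5.41% of the members past the filter. Both scalings divide by a number below 1, which raises every ratio, so all 7 higher members were kept by construction. They called 8 and 9 members (21.6% and 24.3%) and 12.5% and 15.2% of all symbols higher. With the median ratio divided out, 21 members were above and 16 below a ratio of 1, against 16 and 20 as deposited.

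Other genes of the matrix and its receptors showed a mixed picture in MDA-MB-231. Their lists were written from general knowledge, but with earlier results of these data known. Of 18 collagen synthesis genes past the filter, 4 were higher (22.2%, beside 10.8% of all symbols) and 1 lower (5.56%, beside 4.82%), and all 5 were lysyl oxidases or a procollagen enhancer. LOX, LOXL3 and LOXL4, which cross-link collagen and elastin, were at 3.94, 2.60 and 0.408 FPKM in untreated and 9.89, 8.86 and 1.93 FPKM in DAC-treated cells. Of the higher genes in this list, LOXL4 passed the filter only through the DAC-treated library. PCOLCE, which aids the trimming of procollagen, was at 1.26 and 2.93 FPKM. LOXL2 was lower, at 33.8 and 16.7 FPKM. SERPINH1, the collagen chaperone, was at 121.0 and 119.9 FPKM.

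Of 10 other matrix proteins past the filter, 3 were higher and 3 lower (30% each, beside 10.8% and 4.82% of all symbols). FN1 (fibronectin), the main ligand of ITGA5, was at 39.8 and 111.3 FPKM (ratio 2.80, interval 2.73 to 2.83), and SPARC, a collagen-binding matricellular protein, at 2.09 and 11.3 FPKM. FBN2 (fibrillin-2) went from 1 read to 481 reads (1.07 FPKM) and passed the filter only through the DAC-treated library. The basement membrane proteoglycan HSPG2 (perlecan) was lower, at 8.26 and 2.66 FPKM (ratio 0.322, interval 0.304 to 0.341), as were TNC (tenascin-C, 6.48 and 2.16 FPKM) and FBLN1 (fibulin-1, 5.07 and 1.62 FPKM). Of 6 other matrix receptors 1 was lower (16.7%, beside 4.82% of all symbols), SDC1 (syndecan-1), at 63.9 and 28.1 FPKM. Of 15 adhesion proteins that bind integrin tails or their partners, 1 was higher (6.67%, beside 10.8% of all symbols) and 2 were lower (13.3%, beside 4.82%). The kinase SRC was higher (7.43 and 19.2 FPKM) and TLN2 (6.10 and 2.77 FPKM) and FERMT1 (10.8 and 5.23 FPKM) were lower. The other 12, among them TLN1, ILK and VCL, did not pass 2-fold.

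In HMLER, 10 members were listed as more than 2-fold higher: 7 collagens, 2 laminins and 1 integrin. This was 12.2% of the 82 members, where 7.85% of all MDA-MB-231 symbols were in the HMLER table. Of the 36 members past the filter in MDA-MB-231, 7 were listed in HMLER (19.4%), where 10.9% of all such symbols were. The tables of the lines were scaled separately, so levels are not compared between them. Each HMLER value below is the authors' merged value of the 1 listed transcript of a gene, and ratios were computed from it. Transcripts that were not listed are missing from the HMLER values, whereas MDA-MB-231 values are sums over all transcripts.

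Among the HMLER members, COL17A1 and LAMA3 had the highest ratios, followed by ITGB7. COL17A1 was at 0.470 FPKM in untreated and 8.09 in DAC-treated HMLER cells (ratio 17.2), and LAMA3 at 0.606 and 8.94 FPKM (ratio 14.8). LAMB3 was at 31.1 and 96.6 FPKM (ratio 3.11), while the hemidesmosome integrins ITGA6 and ITGB4 were not listed. The LAMA3 transcript listed in HMLER was the 5617-base one, which in MDA-MB-231 was at 0.494 and 0.624 FPKM. ITGB7, a leukocyte beta chain, was at 0.163 and 2.18 FPKM in HMLER (ratio 13.4) and went from 5 to 30 reads in MDA-MB-231. COL9A2 was at 0.989 and 5.86 FPKM (ratio 5.93) and COL9A3 at 4.32 and 10.8 FPKM (ratio 2.49), and both were also higher in MDA-MB-231. These were the 2 of 36 members past the filter that were counted as higher in both cell lines, where 459 of 12525 symbols were (3.66%). COL9A3 passed that filter only through the DAC-treated MDA-MB-231 library. COL8A2 was at 0.434 and 1.38 FPKM (ratio 3.17), COL12A1 at 7.67 and 19.4 (ratio 2.53), COL4A6 at 2.06 and 4.72 (ratio 2.29) and COL27A1 at 4.89 and 9.85 (ratio 2.01). Each of these was also above its untreated value in MDA-MB-231, but none met the threshold there. COL17A1 was the only member counted as lower in MDA-MB-231 and listed in HMLER, where 0.248% of all symbols past the filter were. COL1A1, COL7A1 and ITGA7, which after COL9A3 had the largest MDA-MB-231 ratios of the members past the filter, were not listed in HMLER.

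**Figure D4:**
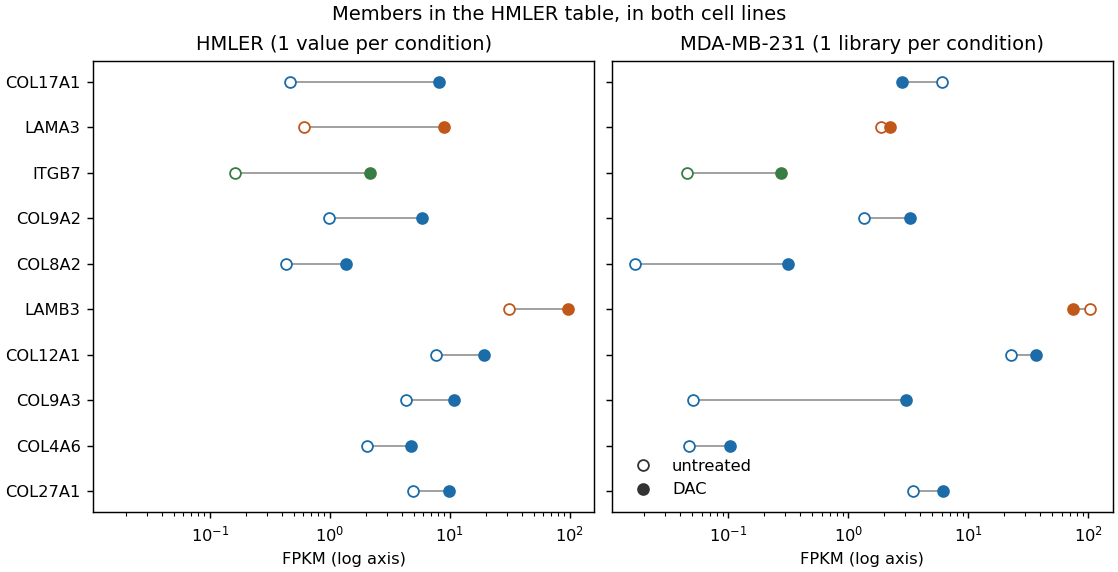
FPKM on a log axis in untreated (open circles) and DAC-treated cells (filled circles) for the 10 members in the HMLER table. HMLER is on the left (the authors' merged value of 1 listed transcript) and MDA-MB-231 on the right (summed transcripts of 1 library). Blue marks collagens, orange laminins and green the integrin. All 10 are higher after DAC in HMLER because the table lists no others, and COL17A1 and LAMB3 are lower in MDA-MB-231.

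CpG content was described for the 58 members with a promoter in the RefSeq table, over 300 bases from 250 before to 50 after the start (the window with the most CpGs where a gene has several). The median was 22 CpGs (range 0 to 46) for the members and 16 over all 27305 symbols with a promoter, and 77.6% of the members and 58.5% of all symbols had 10 or more. CG reads the same on both strands, so each site was counted once within a window. The windows of COL4A1 and COL4A2 overlap, so the sites they share were counted for both genes. The 6 lower members with an entry had a median of 41.5 CpGs, with COL4A1 and COL4A2 counted as separate entries. Among them COL4A1 and COL4A2 had 45 each, COL18A1 46 and ITGA6 38, whereas COL13A1 had 22 and COL17A1 1. The 3 higher members with an entry, COL7A1, ITGA1 and COL9A2, had 17, 19 and 29. The 16 members past the filter but not past 2-fold had a median of 28, and the 33 below 1 FPKM a median of 16. The higher members COL1A1, COL9A3, ITGA7 and ITGB3 and the lower members COL8A1 and ITGA3 had no entry. A difference in CpG number between these groups was not tested. Of the 9 members of the HMLER table with an entry the median was 13 CpGs, from 1 for COL17A1 to 45 for COL8A2. DNA methylation itself is not in these files and was not analysed here.

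**Figure D5:**
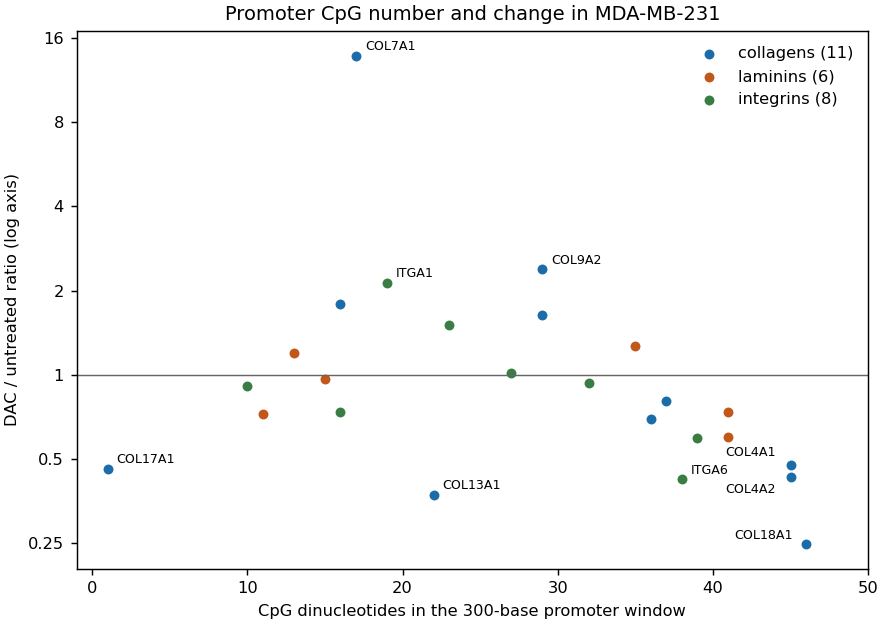
DAC/untreated ratio in MDA-MB-231 (log axis) against the number of CpG dinucleotides in the 300-base promoter window, for the 25 members that reached 1 FPKM and have a promoter entry; genes past 2-fold are named. COL7A1, with 17 CpGs, has the largest ratio, and COL18A1, with 46, the lowest.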

How the data were processed

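Polyadenylated RNA of 6 libraries was prepared with an Illumina TruSeq RNA kit, which the labels name without a strand protocol. TopHat2 (alignment to hg19) and Cuffdiff (FPKM of each RefSeq transcript) were run by the authors through Galaxy. Versions are not given in the sources used here. The deposited MDA-MB-231 table has the FPKM of each library with its lower and upper bounds, and the deposited HMLER values are 1 FPKM per condition, merged over 2 libraries and restricted to 2009 transcripts of 1854 symbols above 2-fold. The authors' own fold changes and p-values in these tables were not used, and 0 other columns of samples were left out.

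Members were taken by symbol, and members and gene lists were chosen with earlier results of these data known. In MDA-MB-231, FPKM of all transcripts of a symbol were summed. Ratios had no pseudocount, and log2 changes had a pseudocount of 1 FPKM, which understates the change of low genes. Named were all members that passed the filter of 1 FPKM in either MDA-MB-231 library or are in the HMLER table, except 1 that is not reported here. Members below the filter that are named beside them were chosen as partners or relatives of these, after their values were seen. Reads were inferred as FPKM times effective length (length minus 240 bases) over what 1 read is worth, 0.0232 FPKM at 1 kilobase without DAC and 0.0233 with it. Of 651 low values of single-transcript genes above 2000 bases in each library, 100% lay within 0.1 of a whole read. Intervals are exact (Clopper-Pearson, 95%). Reads of transcripts that share exons cannot be assigned with certainty. Calls, intervals and the worth of a read were tested on simulated data that had counting error only. Calls and intervals were tested on well-expressed genes. Low genes, reads shared between transcripts and variation between cultures were thus not covered for them. Positions are from GENCODE lifted to GRCh37 (the assembly of hg19) and found for 82 of 82 members. Promoters are from RefSeq on GRCh38.p14, matched by symbol for 58 members. The alternatives tried were other filters, pseudocounts, scalings and transcripts, and the bounds of Cuffdiff. The software was pandas 2.3.3, scipy 1.17.1, numpy 2.4.6 and matplotlib 3.10.9 under Python 3.11.15.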

Additional observations from a re-analysis of the deposited data

Results flagged for a closer look

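COL17A1 and LAMB3 had ratios on opposite sides of 1 in the cell lines, although LAMB3 did not pass 2-fold in MDA-MB-231. There the DAC/untreated ratio was 0.461 for COL17A1 and 0.726 for LAMB3, and in HMLER it was 17.2 and 3.11. The HMLER side was fixed beforehand, as only transcripts with a ratio above 2 are listed for that line. In MDA-MB-231, 7124 of the 12525 symbols past the filter had a ratio below 1. The difference between the lines was not tested, as each line has 1 value per condition. For LAMB3, the 4061-base transcript that is listed in HMLER had a ratio of 0.829 in MDA-MB-231, and the 4307-base transcript a ratio of 0.388. Divided by the median ratio of all symbols, the MDA-MB-231 ratio was 0.505 for COL17A1, no longer past 2-fold, and 0.795 for LAMB3. Divided by the ratio of inferred reads, the MDA-MB-231 ratio was 0.560 for COL17A1, 0.882 for LAMB3 and 1.01 for the 4061-base LAMB3 transcript, so that for this transcript the opposite direction was lost.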

How the results depend on the processing

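No paired analysis was possible because each condition has 1 library in MDA-MB-231 and 1 merged value in HMLER, and for the same reason no replicate was left out. The 7 higher members became 40 without a filter, 2 with 1 FPKM in both libraries, 1 (COL1A1) with 5 FPKM in either, 4 with 1 FPKM added to both values and 2 with bounds that do not overlap. The 8 lower members became 5 after division by the median ratio, 2 after division by the ratio of inferred reads and 1 with bounds apart. The 2 members higher in both lines became 5, 1, 0, 1 and 0 under the first 5 of these settings. Over all symbols, the 1350 higher became 5193, 494, 465, 863 and 118 under the same 5, and the 604 lower became 1080 without a filter, 35 with bounds apart and 336 with the ratio of inferred reads. The 10 HMLER members were 5 when the untreated value, or both, had to reach 1 FPKM. The setting on the untreated HMLER value and the ratio of inferred reads were chosen after seeing the data. The median log2 changes turned positive without a filter (collagens 0.025, laminins 0.14, integrins 0.039), after division by the median ratio (0.047, 0.083 and 0.036) and by the ratio of inferred reads (0.16, 0.23 and 0.18), while collagens were at -0.49 with 1 FPKM in both and -0.90 with 5 FPKM, and laminins at -0.42 with 5 FPKM. The summed ratios of collagens, laminins and integrins were 0.784, 0.904 and 0.639 with the largest transcript, 0.788, 0.934 and 0.687 with the median ratio, 0.874, 1.04 and 0.762 with the ratio of inferred reads, and 0.875, 0.954 and 0.654 without the largest member. Filters and scalings change these values by construction, as they change which genes are kept or shift all ratios alike. The other 45 alternative values kept their sign, with counts within 1.5 times those of the report and medians within 0.1, among them 1934 symbols higher with the ratio of inferred reads, 410 lower with 1 FPKM added and 7 HMLER members with 5 FPKM after DAC. With the largest transcript of each gene the lower members were again 8, but COL6A2 took the place of COL8A1. For the 46 members below 1 FPKM the reads are few and ratios uncertain.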
